A study of Homo sapiens with 4 samples.

Results

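UHRF1 and 9 further genes of the DNA methylation machinery were followed in SHMT2-depleted colorectal cancer cells: UHRF2, DNMT1, DNMT3A, DNMT3B, TET1, TET2, TET3, HELLS and USP7. They were taken by gene symbol from the deposited table of read counts, as a set chosen with earlier results of these data known, and make up 10 of its 26364 rows. All 10 passed the filter of at least 10 counts in at least 2 libraries, which left 14024 genes to test. RNA was sequenced from 2 human cell lines, SW480, which comes from a primary colon tumor, and SW620, which comes from a lymph node metastasis of the same patient. Each line was sequenced once after SHMT2 knockdown and once as control, which makes 4 libraries. The knockdown used a short hairpin RNA that doxycycline switches on. Which hairpin was sequenced and whether the controls also received doxycycline are not given in the sources used here. SHMT2 is the mitochondrial serine hydroxymethyltransferase, which passes a one-carbon unit from serine to folate.

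DNA methylation in mammalian cells is placed and kept mainly at CpG dinucleotides. When DNA is copied, the new strand lacks the mark. UHRF1 binds such hemimethylated sites and adds ubiquitin to histone H3, which recruits DNMT1, the maintenance methyltransferase. DNMT3A and DNMT3B methylate DNA de novo. TET1, TET2 and TET3 oxidize 5-methylcytosine, the first step of active demethylation. UHRF2 is the paralog of UHRF1, HELLS is a chromatin remodeler that maintenance methylation requires at repeats, and USP7 is a deubiquitinase that binds DNMT1 and UHRF1. The files hold RNA only, so they give no methylation level and no protein level.

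Since UHRF1 belongs to the genes commonly used as markers of S phase, the promoters were searched for letters of the type that E2F factors bind. The motif was chosen after expression values had been seen. The letters TTTCCCGC, TTTGGCGC, TTTCGCGC and TTTGCCGC were sought on both strands in RefSeq promoter windows of 300 bases on GRCh38.p14. Of 35116 windows of all genes, 3.31% held at least 1 match, against 4 of 23 windows of the 10 members. These 4 windows belonged to UHRF1, DNMT1 and HELLS. All of the E2F-type letters hold CG. The windows of UHRF1 held 36 to 46 CG, that of DNMT1 30 and that of HELLS 22. Those of the other 7 members held 0 to 50, and the median of all windows was 14. The part of the CG content in the matches was not tested. Of the other letters sought on both strands, CCAAT was in 8 of the 23 windows (34.61% of all windows), CACGTG in 4 (7.26%) and GGGCGG in 14 (44.95%). The stretches of 30 bases around the 5 matches are shown because the search itself split these 3 promoters from the other 7 by them. They are read 5′ to 3′ on the strand of the gene, with the match in capitals. GCGGGAAA, GCGCGAAA and GCGCCAAA are matches read from the opposite strand. For UHRF1 the stretches lie at chr19:4909476-4909505 and chr19:4909973-4910002 on the plus strand. For DNMT1 the stretch lies at chr19:10194937-10194966 on the minus strand. Those of HELLS lie at chr10:94545701-94545730 and chr10:94545769-94545798 on the plus strand.
UHRF1, 14 bases before a start: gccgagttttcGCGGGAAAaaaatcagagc
UHRF1, 160 bases before another start: cccgagcccgaTTTCGCGCgccctgagttc
DNMT1, 2 bases before a start: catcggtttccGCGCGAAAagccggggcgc
HELLS, 76 bases before a start: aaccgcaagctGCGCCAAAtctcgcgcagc
HELLS, 8 bases before the same start: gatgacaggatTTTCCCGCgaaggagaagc
No match in a window says only that these letters are missing there. Of the 3 genes with a match, UHRF1 was called lower after the knockdown, and DNMT1 and HELLS were not called.

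The libraries held between 5530129 and 13774288 counts, so the shallowest and the deepest were both from SW620. SHMT2, the target, was left at 11.2% of control in SW480 and at 6.92% in SW620. Levels are given as CPM, counts scaled to a common library size by TMM. Of 12 colorectal epithelial markers, 7 were tested. The summed level of these 7 was 5735 and 4257 CPM in control and knockdown SW480 cells and 9826 and 8765 CPM in SW620 cells. By edgeR, KRT8 (-0.34 on the log2 scale) and KRT18 (-0.34) fell and CDH1 (0.45) rose in the knockdown. Among all tested genes, edgeR called 1.17% lower and 0.492% higher. By DESeq2 0 of the 7 were called. VIL1 had 2 counts in control and 1 in knockdown SW480 cells, beside 2029 and 5105 counts in SW620 cells, and CDX1 had 0 counts in every library. Of 17 markers of other cell types, 5 were tested, and these 5 summed to 48.3 to 52.9 CPM in SW480 and 21.0 to 22.0 CPM in SW620. Of the 5, 0 were called by edgeR or DESeq2, with 1 lower and 0 higher at an unadjusted p of 0.05 or less. At that unadjusted threshold, 4.91% of all tested genes were lower and 4.15% higher by edgeR. The 5 tested were COL1A1, MYH11, CD68, DES and VWF, with 203, 107, 104, 83 and 11 counts in control SW480 cells. Among the untested, PTPRC, the pan-leukocyte marker, had at most 2 counts in a library and CD3E had 0. The part of any such shift in the results below was not tested.

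UHRF1 was the one member called in the comparison of knockdown with control. Its transcript (chr19:4903080-4962154, plus strand, GENCODE 29 on GRCh38) fell by 1.76 on the log2 scale over both lines. Control SW480 cells held 229.8 CPM (2207 counts) and knockdown SW480 cells 69.4 CPM (460 counts). Control SW620 cells held 234.3 CPM (1278 counts) and knockdown SW620 cells 67.9 CPM (913 counts). The 2 control libraries lay close together, and so did the 2 knockdown libraries. The knockdown library was the lower of the pair in both lines, a direction shared by 24.7% of all tested genes. The level left was 30.2% in SW480 (95% interval 27.3% to 33.4%) and 28.97% in SW620 (26.6% to 31.6%). These intervals come from the counts of 2 libraries and cover counting error only. The fitted log2 change was -1.76 ± 0.12 (SE, 2 libraries per group, adjusted p = 3.80e-43 by edgeR's quasi-likelihood test with a term for the cell line). Over the alternatives that kept this term and gave a test, the adjusted p ranged from 4.24e-41 to 0.000191. Without the term it was 1, with the same direction in both lines. In RNA from whole cultures, fewer cells that carry a transcript and less transcript per cell cannot be told apart.

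Across the set, 1 of 10 members was called lower and 0 higher by edgeR. DESeq2 gave the same counts, but no adjusted p for UHRF2, DNMT3A, DNMT3B, TET1, TET2 and HELLS. It could therefore not call these genes, and its counts say nothing about them. By edgeR, 1.17% of all tested genes were called lower and 0.492% higher. At an unadjusted p of 0.05 or less, 3 members were lower, UHRF1, DNMT1 and TET3, and 0 were higher, against 4.91% and 4.15% of all genes. The median log2 change of the members was -0.10, beside 0.0075 over all tested genes. The knockdown library was the lower of the pair in both lines for 5 members and the higher in both for 1, and for 4 the lines had opposite signs. Among all tested genes, 24.7% were lower in both lines, 27.0% higher in both, and 45.6% had opposite signs. Of the 5 members, UHRF1 was the one called, and the counting interval of UHRF2 spanned 100% in both lines.

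**Figure D1:**
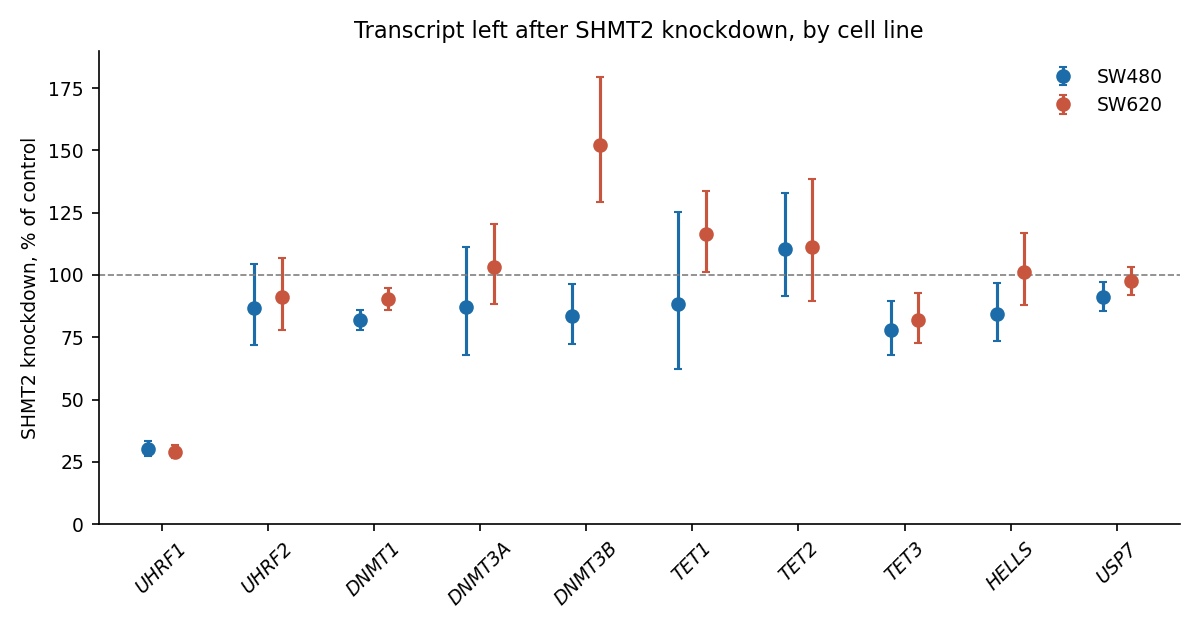
Transcript left after SHMT2 knockdown for each of the 10 members, in percent of the control library of the same line, with SW480 in blue and SW620 in red. Bars are 95% counting intervals from 1 library per condition; UHRF1 stands near 30% in both lines, and DNMT3B is at 83.7% in SW480 and 152% in SW620.

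The paralog of UHRF1 was not called. UHRF2 (chr9:6413151-6507054, plus strand) had 32.2 CPM in control and 27.9 CPM in knockdown SW480 cells, and 42.4 and 38.7 CPM in SW620 cells. Its log2 change was -0.17 ± 0.15 (adjusted p = 0.896). The count of UHRF1 per count of UHRF2 was 7.14 in control SW480 cells and 2.49 after knockdown. In SW620 cells the same ratio was 5.53 and 1.76. The ratio needs no scaling between libraries, and its 95% counting interval after knockdown did not overlap that of the control in either line.

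DNMT1, the enzyme that UHRF1 brings to newly copied DNA, was not called either. DNMT1 (chr19:10133345-10231286, minus strand) had 462.4 CPM in control and 378.9 CPM in knockdown SW480 cells. In SW620 cells it had 433.6 and 391.0 CPM. The knockdown library was the lower of the pair in both lines, as for 24.7% of all tested genes. The level left was 81.9% (95% interval 78.0% to 86.1%) in SW480 and 90.2% (85.9% to 94.7%) in SW620. The log2 change of -0.22 ± 0.10 had an unadjusted p of 0.0331 by edgeR and did not pass adjustment (adjusted p = 0.464). By DESeq2 the unadjusted p was 0.0813. The count of UHRF1 per count of DNMT1 was 0.497 in control and 0.183 in knockdown SW480 cells, and 0.540 and 0.174 in SW620 cells.

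USP7 and HELLS were not called, with smaller fitted changes than DNMT1. USP7 (chr16:8892094-8964514, minus strand) had 252.1 and 230.0 CPM in control and knockdown SW480 cells, and 302.3 and 294.6 CPM in SW620 cells, a log2 change of -0.08 ± 0.11 (adjusted p = 0.957). HELLS (chr10:94501434-94613905, plus strand) had 58.4 and 49.3 CPM in SW480 and 51.9 and 52.6 CPM in SW620, a log2 change of -0.11 ± 0.13 (adjusted p = 0.950). In SW480 its counting interval of 73.5% to 97.0% lay below 100%, while in SW620 the interval of 88.1% to 116.7% spanned it. Per count of HELLS, UHRF1 went from 3.93 to 1.41 in SW480 and from 4.52 to 1.29 in SW620. Per count of USP7 it went from 0.912 to 0.302 and from 0.775 to 0.230.

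The methyltransferases for de novo methylation were not called over both lines, and DNMT3B moved in opposite directions in them. DNMT3B (chr20:32762385-32809356, plus strand) had 55.0 CPM (528 counts) in control and 46.0 CPM (305 counts) in knockdown SW480 cells. In control SW620 cells its level was 34.5 CPM (188 counts), and in knockdown SW620 cells 52.4 CPM (705 counts). The level left was 83.7% (95% interval 72.4% to 96.5%) in SW480 and 152% (129.3% to 179.5%) in SW620. The knockdown was thus below control in SW480 and above it in SW620, and the log2 change over both lines was 0.16 ± 0.14 (adjusted p = 0.887). The log2 ratio of SW620 exceeded that of SW480 by 0.86 (95% counting interval 0.55 to 1.17). With 1 library per line and condition there was no test of this difference between lines. Of all tested genes, 12.5% had a difference of at least this size, and of the 7625 genes with at least 100 counts in every library 60, or 0.787%, did.

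DNMT3A (chr2:25227855-25342590, minus strand) had 18.5 and 16.1 CPM in control and knockdown SW480 cells, and 43.3 and 44.6 CPM in SW620 cells. Its log2 change was -0.06 ± 0.16 (adjusted p = 0.986). The count of DNMT3A per count of DNMT3B was 0.337 and 0.351 in control and knockdown SW480 cells. In SW620 the ratio went from 1.26 (95% interval 1.03 to 1.53) to 0.851 (0.762 to 0.950), so the order of the 2 counts turned.

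**Figure D2:**
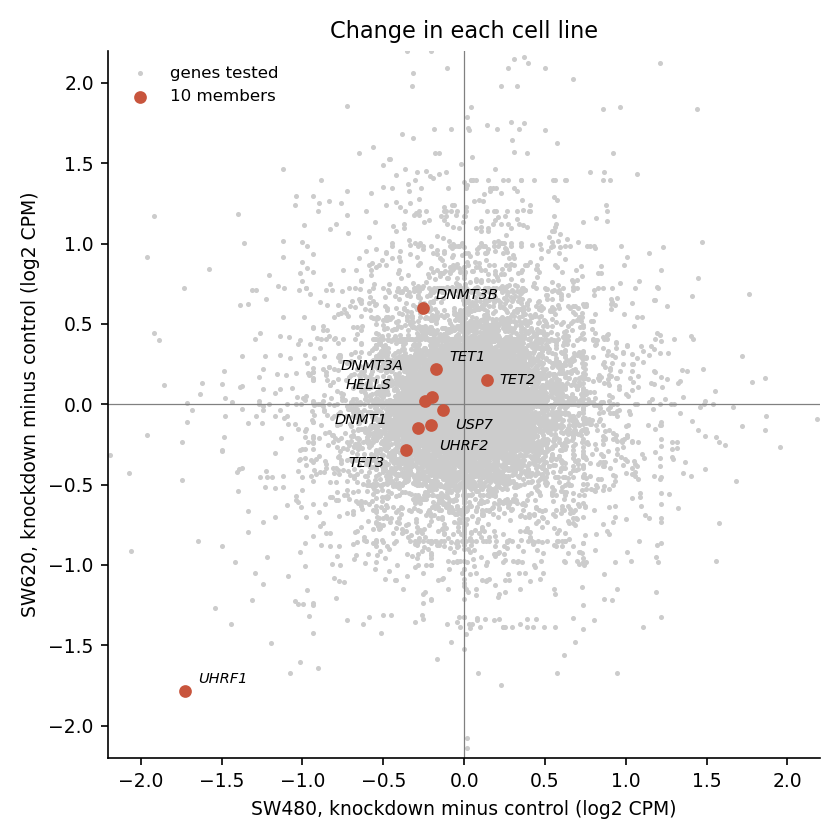
Log2 change of knockdown against control in SW480 on the x axis and in SW620 on the y axis, with 1 grey point for each tested gene and the 10 members in red. UHRF1 is the member at the lower left, DNMT3B lies above the rest, and 14 genes fall outside the plotted range of 2.2 in either direction.

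The 3 TET genes, which oxidize the mark, were not called in the knockdown. TET3 (chr2:73986404-74108176, plus strand) had 63.4 and 49.5 CPM in control and knockdown SW480 cells, and 73.9 and 60.7 CPM in SW620 cells. The knockdown library was the lower of the pair in both lines, at 78.0% (95% interval 68.0% to 89.4%) and 82.1% (72.8% to 92.7%) of control. The log2 change of -0.32 ± 0.13 had an unadjusted p of 0.0159 (adjusted p = 0.318). By DESeq2 the unadjusted p was 0.141, and with all libraries thinned to the smallest total it was 0.0714. TET2 (chr4:105145875-105279816, plus strand) was the member that lay above control in both lines, with 28.0 and 30.9 CPM in SW480 and 21.1 and 23.4 CPM in SW620. Its log2 change of 0.15 ± 0.17 did not pass (adjusted p = 0.949), and the sign turned when libraries were thinned. TET1 (chr10:68560656-68694482, plus strand) had 9.37 and 8.30 CPM in SW480 and 50.6 and 58.9 CPM in SW620. Its log2 change over both lines was 0.09 ± 0.17 (adjusted p = 0.975).

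Read within each line by counting error alone, 6 members lay below control in SW480 and 0 above it, against 15.8% and 14.0% of all tested genes. These 6 were UHRF1, DNMT1, DNMT3B, TET3, HELLS and USP7. In SW620, UHRF1, DNMT1 and TET3 lay below, against 12.2% of all genes, and DNMT3B and TET1 lay above, against 13.4%. The median log2 change of the members was -0.22 in SW480 and -0.0095 in SW620, and that of all tested genes was 0.0050 and 0.00033. The interval of the difference between lines left out 0 for 2 members, DNMT1 and DNMT3B, against 24.6% of all genes. For DNMT1 the difference was 0.14 (0.04 to 0.24). For UHRF1 it was -0.06 (-0.25 to 0.13).

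Over both treatments, 5 of the 10 members were called different between SW620 and SW480 by edgeR with a term for the treatment. TET1, DNMT3A, UHRF2 and USP7 were called higher in SW620 and TET2 lower, while 32.3% of all tested genes were called higher and 31.3% lower. The share of members called was therefore not above the background. TET1 differed by the most, with a log2 difference of 2.62 ± 0.17 (adjusted p = 3.21e-49 by edgeR). The level in SW620 was 5.40 times that in SW480 in control cells (95% interval 4.24 to 6.93) and 7.10 times in knockdown cells (5.40 to 9.51). DNMT3A was next, at 1.34 ± 0.16 (adjusted p = 1.02e-15), or 2.33 times in control and 2.76 times in knockdown cells. For these 2 genes both calls held by DESeq2.

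The remaining line differences were smaller and depended on the test. UHRF2 was higher in SW620 by 0.43 ± 0.15 (adjusted p = 0.00706) and USP7 by 0.31 ± 0.11 (adjusted p = 0.00788). TET2 was lower in SW620, at -0.40 ± 0.17 (adjusted p = 0.0275). By DESeq2 the adjusted p was 0.231 for UHRF2, 0.0631 for USP7 and 0.282 for TET2. USP7 also missed the threshold with no filter on low counts (adjusted p = 0.0541), and TET2 without the treatment term (adjusted p = 0.0547). DNMT3B was 0.627 times as high in SW620 as in SW480 in control cells (95% interval 0.528 to 0.742) and 1.14 times in knockdown cells (0.995 to 1.31). UHRF1 was level between the lines, at 1.02 times in control (0.951 to 1.09) and 0.978 times in knockdown cells (0.874 to 1.10). DNMT1, TET3 and HELLS were not called, with adjusted p of 0.856, 0.0791 and 0.827.

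**Figure D3:**
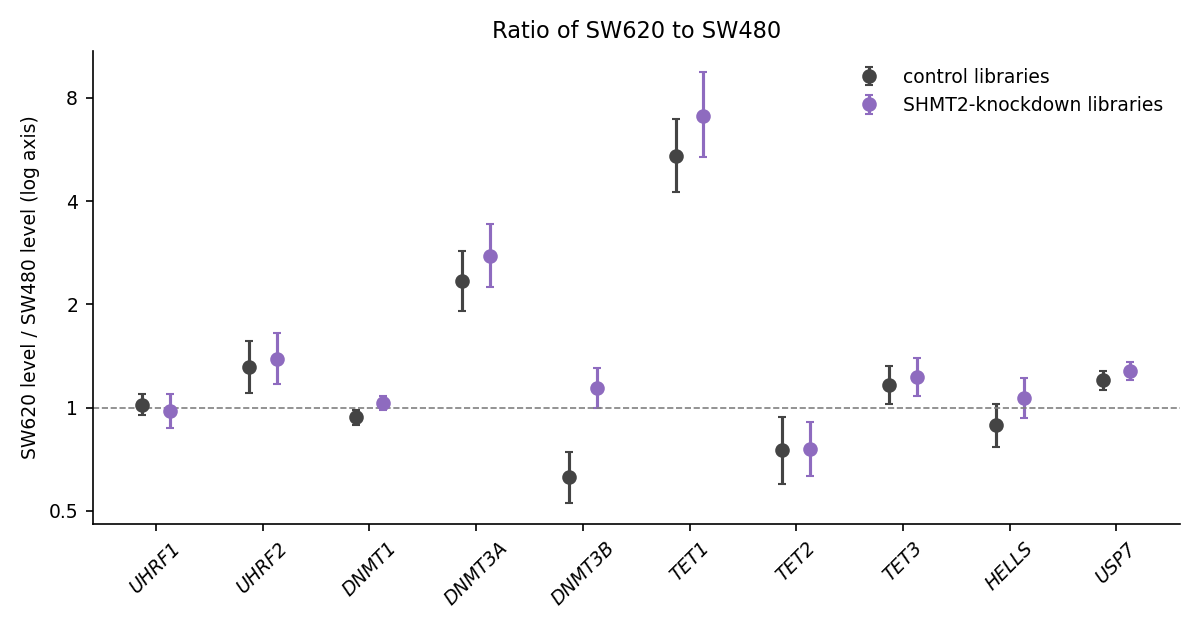
Level in SW620 divided by the level in SW480 for each member, on a log axis, for the control libraries in grey and the SHMT2-knockdown libraries in purple, with 95% counting intervals. TET1 and DNMT3A lie above 2 in both comparisons, UHRF1 lies at 1.02 and 0.978, and DNMT3B moves from 0.627 to 1.14.

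To order the members by abundance, levels were divided by the joined length of the exons of their coding transcripts in GENCODE 29, which gives RPKM, the CPM for each kilobase of exon. DNMT1 was the most abundant member in every library, at 62.4 to 76.1 RPKM. UHRF1 had 44.7 and 45.5 RPKM in control SW480 and SW620 cells, beside 41.2 and 49.4 RPKM for USP7, and 13.5 and 13.2 RPKM after knockdown. After knockdown it ranked below DNMT1 and USP7 and still above DNMT3B at 7.45 to 11.9 RPKM. UHRF2, HELLS and TET3 lay between 4.31 and 11.2 RPKM, and in control SW620 cells UHRF2 was above DNMT3B. TET2 stayed at 1.31 to 1.92 RPKM. DNMT3A had 1.503 to 1.73 RPKM in SW480 and 4.03 to 4.15 RPKM in SW620. TET1 had 0.893 to 1.01 RPKM in SW480 and 5.45 to 6.34 RPKM in SW620. TET1 was the lowest member in SW480 and above TET2 and DNMT3A in SW620. With the longest coding transcript as the length, the mean control level of HELLS was 11.1 in place of 7.32 RPKM and that of TET2 was 2.42 in place of 1.53 RPKM, so the order of neighbours depends on the annotation. Within SW480 the count of TET1 per count of TET2 was 0.335 in control and 0.268 in knockdown cells, and within SW620 it was 2.40 and 2.51.

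**Figure D4:**
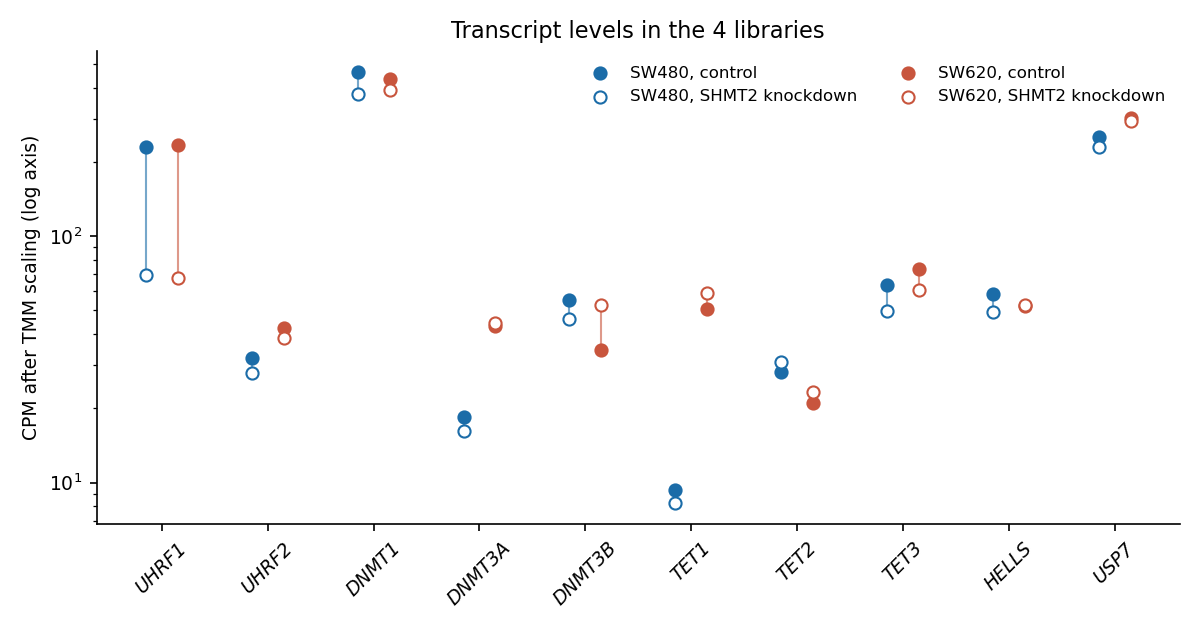
CPM after TMM scaling of the 10 members in the 4 libraries, on a log axis, with filled points for control and open points for SHMT2 knockdown, SW480 in blue and SW620 in red. Lines join the 2 libraries of a cell line; the long lines belong to UHRF1, and the gap between blue and red is widest for TET1. CPM are not divided by gene length, so levels are read within a gene.

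UHRF1 and HELLS both stand on the list of 43 S phase markers, and members of the rest of that list were called lower too. Of all tested genes, 1.17% were called lower and 0.492% higher. At an unadjusted p of 0.05 or less these shares were 4.91% and 4.15%. Of the 41 markers that are no members, 6 were called lower and 0 higher, 26 were lower and 0 higher at an unadjusted p of 0.05 or less, and 39 were lower in both lines, as were 3468 of all 14024 tested genes. Their median log2 change was -0.30, with -0.34 in SW480 and -0.24 in SW620. By DESeq2, 2 of the full list of 43 were called lower and 0 higher, beside 21 lower and 5 higher among all genes. UHRF1 fell by the most of the 43. Next came WDR76, at -0.64 ± 0.14 (adjusted p = 0.00135), while HELLS was at place 37. Other markers called lower were PCNA, the sliding clamp of DNA replication (-0.42, adjusted p = 0.00367), UNG, the uracil DNA glycosylase (-0.52, adjusted p = 0.00513), CDC6, a replication licensing factor, and ATAD2. The 54 G2/M markers had a median of -0.22, with 7 called lower and 0 higher, 26 lower and 0 higher at an unadjusted p of 0.05 or less, and 2 lower and 0 higher by DESeq2. The G2/M markers called included ANLN, TUBB4B, CDC20, UBE2C, CDK1 and NUF2. The part of the proliferation markers' shift in the level of UHRF1 was not tested.

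**Figure D5:**
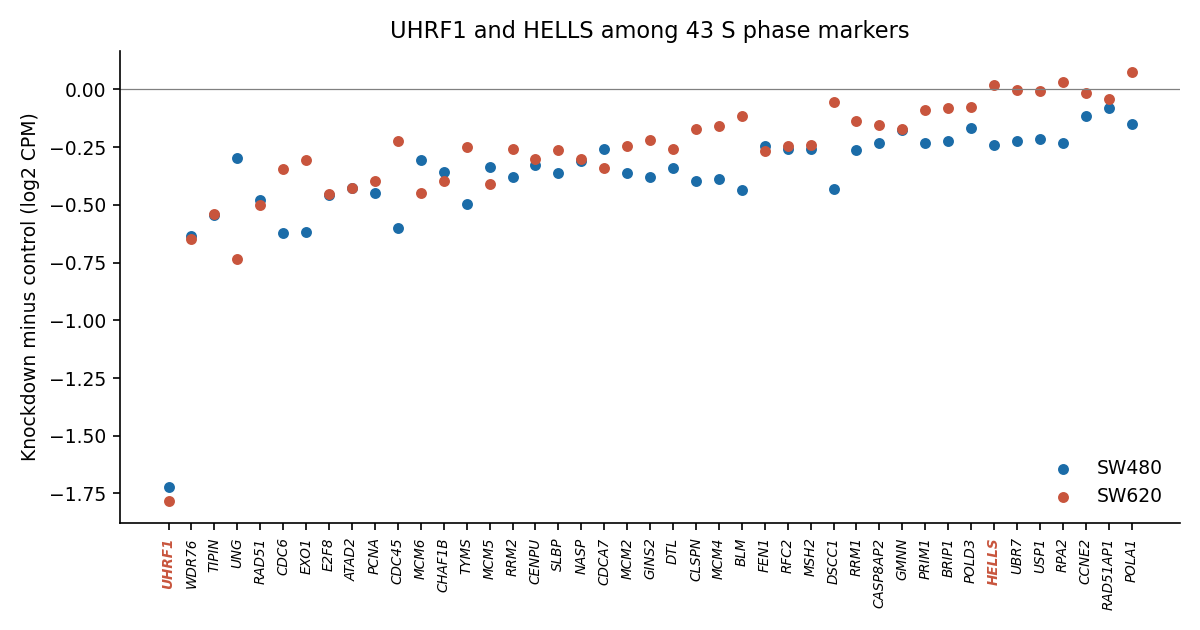
Log2 change of knockdown against control for 43 S phase markers, ordered by the change over both lines, with SW480 in blue and SW620 in red and the names of UHRF1 and HELLS in bold red. UHRF1, at -1.72 and -1.78 with a prior count of 2, stands apart from WDR76 in the next place, and HELLS is at place 37.

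Genes whose products work with UHRF1 and DNMT1 were mostly not called in the knockdown. Of 21 such partners, all tested, 1 was called lower and 0 higher, by edgeR and by DESeq2. By edgeR 1.17% of all tested genes were called lower and 0.492% higher. At an unadjusted p of 0.05 or less 3 partners were lower and 0 higher, against 4.91% and 4.15% of all tested genes. The one called by edgeR was PCNA, which is also an S phase marker, and 2 of the 21 stand on that list. The median log2 change was -0.06. CDCA7, which activates HELLS, had a log2 change of -0.30 (adjusted p = 0.347), and SUV39H1, a histone H3 lysine 9 methyltransferase, had -0.32 (adjusted p = 0.384). TRIM28 had -0.18 (adjusted p = 0.560). Between the lines, 11 partners were called higher and 2 lower in SW620, against 32.3% and 31.3% of all tested genes. SUV39H1 was higher by 1.17 (adjusted p = 3.04e-15) and PCNA by 1.14 (adjusted p = 5.91e-28).

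Of 15 readers of methylated or unmethylated CpG, 0 were called in the knockdown by edgeR or DESeq2, with 0 lower and 1 higher at an unadjusted p of 0.05 or less and a median of -0.0037. Of 8 tested regulators of de novo methylation, from a list of 12, 0 were called by either tool and 0 passed the unadjusted threshold, with a median of -0.05. Of 18 listed genes of active demethylation and TET cofactors, 16 were tested. By edgeR 2 of the 16 were called lower and 0 higher, against 1.17% and 0.492% of all tested genes, and by DESeq2 0. At an unadjusted p of 0.05 or less 3 were lower and 0 higher, against 4.91% and 4.15% of all tested genes. The 2 called by edgeR were UNG and APEX1, the abasic site endonuclease (-0.40, adjusted p = 0.0286). Both belong to general base excision repair as well. TDG, the glycosylase that removes the oxidized bases made by TET enzymes, had a log2 change of -0.14 (adjusted p = 0.911). Among readers, 9 were called higher and 2 lower in SW620, against 32.3% and 31.3% of all tested genes. CXXC5 was higher by 1.75 (adjusted p = 3.98e-36 by edgeR).

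Genes that DNA methylation commonly silences, such as cancer-testis genes, imprinted genes and tumor suppressors, were counted as a list of 52, of which 16 were tested. In the knockdown 1 was called lower and 0 higher by edgeR, against 1.17% and 0.492% of all tested genes, and 0 by DESeq2. At an unadjusted p of 0.05 or less 1 was lower and 1 higher, against 4.91% and 4.15% of all tested genes. The one called was SFRP5, a secreted Wnt antagonist, with 90 and 81 counts in control and knockdown SW620 cells and only 3 and 1 counts in SW480 cells. The median log2 change of the 16 was 0.11. Of the 35 list genes that were in the table but not tested, 21 had 0 counts in every library, and the untested genes summed to 15 and 9 counts in control and knockdown SW480 cells and to 9 and 31 counts in SW620 cells. Each of these libraries was of a different depth, and a gene at 0 counts was not detectable at this depth. Between the lines, 7 of the 16 were called higher and 7 lower in SW620, against 32.3% and 31.3% of all tested genes. MAGEA3, CACNA1G, SOCS1, TIMP3, H19 and SFRP5 reached 10 counts in 1 line only. They passed the filter through the line where they are high, so their line calls were largely set by it. The counts between the lines are therefore no result about this list. MAGEA3, a cancer-testis gene, had 857 and 618 counts in control and knockdown SW480 cells and 0 and 1 in SW620 cells. MAGEA3 was picked after its values had been seen.

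The 5 tested genes whose levels ran most like UHRF1 over the 4 libraries were ANLN, TIGD3, RWDD1, B4GALT4-AS1 and ISOC1. Likeness was the Euclidean distance between log2 CPM values, each centred on the mean of its gene, and it ranged from 0.386 for ANLN to 0.759 for ISOC1. ANLN, the actin-binding protein anillin, had 256.4 and 87.9 CPM in control and knockdown SW480 cells and 230.3 and 95.4 CPM in SW620 cells. The log2 change of ANLN was -1.41 ± 0.12 (adjusted p = 1.501e-28 by edgeR). RWDD1 was at -1.31 ± 0.16 (adjusted p = 6.30e-13) and ISOC1 at -1.18 ± 0.15 (adjusted p = 4.63e-12). TIGD3 and B4GALT4-AS1 had at most 33 counts in a library and were not called (adjusted p = 0.363 and 0.252). The likeness rests on 4 libraries and describes them alone.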

How the data were processed

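SW480 and SW620 cells were sequenced with and without SHMT2 knockdown, 1 library each. The table the authors deposited lists unnormalized read counts by gene symbol. The submitters' processing notes name Bowtie 0.12.2 and hg18 without a role; the counter, annotation and strand setting are not given in the sources used here. Reads from members that overlap another gene (DNMT1 with S1PR2, HELLS with TBC1D12, TET2 with TET2-AS1, among others) may be shared. In 28 rows the symbol had been turned into a date; these rows were kept as deposited.

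Groups came from the sample labels. The labels describe Illumina TruSeq RNA libraries, whereas the methods of the study name an Agilent microarray; the table holds integers whose sums differ between libraries. Genes reaching 10 counts in 2 or more libraries were fitted in edgeR 4.0.16 (R 4.3.3) with TMM scaling and terms for cell line and treatment, by the two-sided quasi-likelihood test; p-values were adjusted by Benjamini-Hochberg across 14024 genes, with a threshold of 0.05. The fit leaves 1 residual degree of freedom, so its p-values rest on a dispersion shared across genes. That degree holds the difference between the lines in knockdown change together with noise between libraries. No condition was repeated within a line, so the p-values do not measure a spread between replicate cultures. Each SE is the size of the log2 change divided by the square root of the test's F statistic. It therefore rests on the same shared dispersion and is no separate measure of spread. The cell line pairs the libraries, since a knockdown and its control come from the same line (Pearson correlation of deviations across genes 0.961). DESeq2 1.42.0 was the other test. It left some genes without an adjusted p, and these counted as not called. Over all genes it called 21 lower and 5 higher in the knockdown. Intervals within a line are exact conditional binomial intervals at 95% on the counts. Reads carry no molecular identifiers, so the intervals cover counting error only. A prior count of 2 entered the log2 values within lines that are plotted, summarised as medians, counted by sign or used for likeness to UHRF1; percentages of control, ratios, differences between lines and the values of each line alone carry no prior count. Other settings were no filter, a filter of 50 counts, DESeq2 size factors, upper quartile scaling, thinning to the smallest total, no cell line term, each line alone, and no treatment term. The scripts were tested on simulated counts.

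The members and lists were chosen with earlier results of these data known. All members are named in every library. Of each further list at most 6 called genes were named, smallest p first. Exceptions are genes named as chosen afterwards and the uncalled list genes CDCA7, SUV39H1, TRIM28, TDG and CXXC5, also chosen after their values were seen. The markers VIL1, CDX1, PTPRC and CD3E and the 5 tested markers of other cell types are further exceptions. Gene positions and lengths came from GENCODE 29 on GRCh38 and promoters from RefSeq on GRCh38.p14, which is not the build in the notes; no position was taken from the count table.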

Additional observations from a re-analysis of the deposited data

Results flagged for a closer look

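For 4 of 10 members the knockdown library lay below its control in SW480 and above it in SW620. Opposite signs were found in 45.6% of all tested genes, so the share of members is not above the background. In SW620 the counting intervals of HELLS (88.1% to 116.7% of control) and DNMT3A (88.5% to 120.3%) spanned 100%. The difference between the log2 ratios of the 2 lines was 0.86 for DNMT3B, 0.39 for TET1, 0.26 for HELLS and 0.24 for DNMT3A. With 1 library per line and condition these differences were not tested. The 95% counting interval left out 0 for DNMT3B and spanned it for TET1 (-0.13 to 0.92), HELLS (-0.02 to 0.54) and DNMT3A (-0.17 to 0.65). The control library of SW620, where DNMT3B had 188 counts, was the shallowest, and the part of its depth in the value was not tested. With all libraries thinned to the smallest total, an alternative chosen after seeing the data, the difference for DNMT3B was 0.88. With DESeq2 size factors it was 0.87 and with upper quartile scaling 0.84.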

How the results depend on the processing

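The fall of UHRF1 kept its direction under every setting run, each line alone included (-1.73 in SW480 and -1.79 in SW620), and lost its call only without the replicate block, the cell line term (unadjusted p = 0.00106, adjusted p = 1). Without the block 0 members were called lower and 1 had an unadjusted p of 0.05 or less, beside 1 and 3 with it; DESeq2 also gave 1 at the unadjusted threshold. Members called higher in SW620 went from 4 to 2 by DESeq2, and members called lower from 1 to 0 by DESeq2 and without the treatment term. Over all genes the knockdown called 233 genes, against 69 with a filter of 50 counts, 118 with upper quartile scaling, 26 by DESeq2, 15 after thinning and 0 without the block. The line comparison called 8926 genes, and 5506 by DESeq2. Values near 0 turned sign. After thinning, the log2 change was 0.0084 for DNMT3A and -0.13 for TET2. The line difference of UHRF1, 7.07e-06 as reported, was -0.041 with no filter, -0.0094 with a filter of 50 counts, -0.02362 with DESeq2 size factors, -0.02393 by DESeq2, -0.073 with upper quartile scaling, -0.0074 after thinning and -0.01955 without the treatment term. The causes were not tested. Leaving out a line leaves 1 library per group, a value with no test.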
